A study of Mus musculus with 8 samples.

Results

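The 9 genes described here are the 4 adult globin genes Hbb-bs, Hbb-bt, Hba-a1 and Hba-a2, the haem enzyme gene Alas2, and 4 genes known from late red cell precursors, Bpgm, Car2, Mkrn1 and Tent5c. They were taken by gene symbol, and all 9 were present among the 32285 genes measured. Single-cell gene expression was read from the ascending thoracic aorta, where the vessel leaves the heart, of aged mice labelled wildtype. The cells were pooled from 3 mice of 81, 84 and 88 weeks, marked before pooling with hashtags 1, 2 and 3 (barcoded antibodies, 1 per mouse), so a hashtag set holds the cells of 1 mouse. The tissue was digested with collagenase and elastase and depleted of dead cells, and the labels give no step that removes red cells. No young or treated group was present in the files used here, so the comparisons are between groups of cells of the same mice.

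Haemoglobin is built from alpha chains (Hba-a1, Hba-a2), beta chains (Hbb-bs, Hbb-bt) and haem. Maturing red cells lose the nucleus, then their mitochondria and ribosomes, and reticulocytes, the youngest red cells of blood, still carry globin mRNA. Alas2 is the red cell form of the first enzyme of haem synthesis. Bpgm makes bisphosphoglycerate, which lowers the oxygen affinity of haemoglobin. Car2 encodes a carbonic anhydrase, which interconverts carbon dioxide and bicarbonate. Mkrn1 encodes a ubiquitin ligase, and Tent5c a poly(A) polymerase that lengthens the tails of mRNAs. When blood is present in a digested tissue, red cell mRNA is also found loose in the suspension and is captured with every cell.

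The promoters of the 4 globins and of Alas2 are shown because these 5 genes gave the most UMIs of the 9 in the globin-rich barcodes described next. Each is the stretch of 250 bases before the annotated transcription start, read on the strand of the gene from RefSeq (build GRCm38.p6). Windows were held for 8 of the 9 genes, all but Car2. Capitals mark matches to the TATA motif TATAA, searched on the strand of the gene alone, and, on both strands, to the CCAAT box, the CACCC box and the GATA motif AGATAA.
Hbb-bs, chr7:103827929-103828178, minus strand: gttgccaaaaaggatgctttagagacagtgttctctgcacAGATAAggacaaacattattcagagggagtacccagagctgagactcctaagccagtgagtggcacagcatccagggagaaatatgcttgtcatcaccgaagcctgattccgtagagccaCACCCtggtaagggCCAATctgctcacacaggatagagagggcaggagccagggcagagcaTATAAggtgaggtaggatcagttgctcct
Hbb-bt, chr7:103813924-103814173, minus strand: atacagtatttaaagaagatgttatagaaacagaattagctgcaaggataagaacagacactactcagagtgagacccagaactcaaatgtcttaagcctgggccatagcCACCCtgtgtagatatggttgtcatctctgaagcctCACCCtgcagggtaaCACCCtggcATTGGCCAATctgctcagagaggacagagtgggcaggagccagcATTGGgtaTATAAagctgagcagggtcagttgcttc
Hba-a1, chr11:32283422-32283671, plus strand: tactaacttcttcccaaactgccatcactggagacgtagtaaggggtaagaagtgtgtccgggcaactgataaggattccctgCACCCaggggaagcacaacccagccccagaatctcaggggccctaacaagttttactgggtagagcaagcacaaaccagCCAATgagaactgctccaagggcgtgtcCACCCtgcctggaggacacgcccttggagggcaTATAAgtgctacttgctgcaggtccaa
Hba-a2, chr11:32296242-32296491, plus strand: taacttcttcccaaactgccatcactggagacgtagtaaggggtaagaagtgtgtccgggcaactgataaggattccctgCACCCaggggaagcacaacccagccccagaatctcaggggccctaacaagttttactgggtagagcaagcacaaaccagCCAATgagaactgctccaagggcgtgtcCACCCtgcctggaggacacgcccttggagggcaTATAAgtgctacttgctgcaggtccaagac
Alas2, chrX:150547167-150547416, plus strand: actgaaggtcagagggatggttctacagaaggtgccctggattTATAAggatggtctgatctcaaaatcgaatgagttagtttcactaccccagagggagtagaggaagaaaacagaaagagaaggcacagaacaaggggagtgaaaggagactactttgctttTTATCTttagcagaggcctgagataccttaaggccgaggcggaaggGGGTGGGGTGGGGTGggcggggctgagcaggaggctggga
All 4 globin windows held TATAA close to the start, beginning at base -29 in Hbb-bs, -28 in Hbb-bt, -27 in Hba-a1 and -30 in Hba-a2 (base -1 is the last before the start). A CCAAT lay further up in each, at -76, -75, -88 and -91 in the same order. The Hbb-bt window held CCAAT again on the opposite strand at -80, directly beside the first, and at -36. CACCC was found once in Hbb-bs (-90), 3 times in Hbb-bt (-140, -104 and -89) and in both alpha windows (-167 and -60 in Hba-a1, -170 and -63 in Hba-a2). Alas2 differed in this window, with TATAA only at -207, no CCAAT, and a run of 3 CACCC on the opposite strand at -40, -35 and -30. AGATAA was found in Hbb-bs at -210 and on the opposite strand of Alas2 at -86. Other forms of the GATA motif were not searched for, so the stretches in lower case may hold them. Over all 32817 windows of the same length, the TATA motif was present in 16%, the CCAAT box in 33.8%, the CACCC box in 52.0% and the GATA motif in 9.99%, and the first 3 of these together in 2.26%. The windows of Hba-a1 and Hba-a2 were identical at 247 of 253 aligned columns (97.6%), while those of Hbb-bs and Hbb-bt were identical at 70.5%. The transcripts within each pair are near copies, so the split of reads between Hba-a1 and Hba-a2, and between Hbb-bs and Hbb-bt, rests on how the authors' counting placed them and is uncertain.

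The matrix held 142108011 UMIs (unique molecular identifiers, each counting 1 captured 3' end, so counts are not divided by gene length) in 26916 barcodes. No barcode had fewer than 900. A barcode was called globin-rich when the 4 adult globins made up at least 20% of its UMIs, with no filter on genes or mitochondrial share, and 3443 barcodes (12.8%) were. They held 91.6% of all adult globin UMIs. Their median globin share was 65.7% and the highest was 86.7%, with medians of 2644 UMIs and 252 genes and a median mitochondrial share of 14.0%. The reference cells were 9623 cells of all other classes with a globin share under 5%, at least 500 genes and 1000 UMIs, under 15% mitochondrial UMIs and no doublet call. These had a median of 8809 UMIs. Between the groups lay 457 barcodes with a globin share of 5 to 20%. Among globin-rich barcodes 95, 252 and 132 carried hashtag 1, 2 and 3 alone, 72 carried several and 2892 (84.0%, exact binomial 95% interval 82.7 to 85.2%) carried none, so most could not be tied to a mouse. Of the other cells, 523, 2255 and 942 carried hashtag 1, 2 and 3 and 5903 carried none (61.3%).

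**Figure D1:**
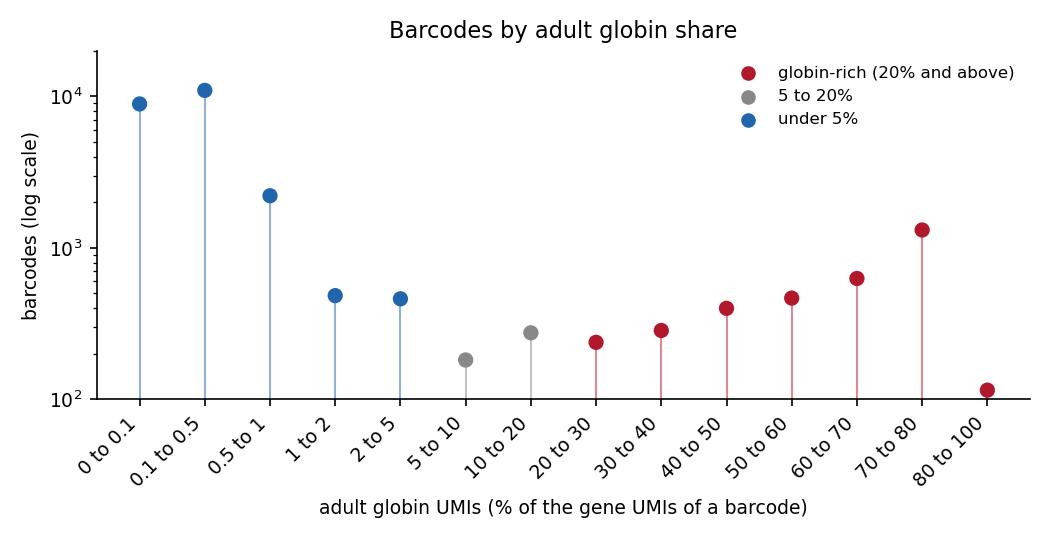
Number of barcodes (vertical axis, log scale) in each range of adult globin share (horizontal axis, % of the gene UMIs of a barcode), with globin-rich barcodes in red, 5 to 20% in grey and under 5% in blue. The counts fall to 182 barcodes at 5 to 10% and reach 1312 at 70 to 80%, above the neighbouring ranges on either side.

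The globin-rich barcodes with a hashtag were not like those without. Their median gene number was 287, 685 and 339.5 in sets 1, 2 and 3, against 241 in barcodes with no hashtag, and their median globin share was 56.2%, 47.8% and 52.3%, against 68.2%. Summed UMIs of markers of other cell types were present with and without a hashtag. The 10 T cell markers summed to 536, 3440 and 1512 CPM (UMIs per 1000000 UMIs) in sets 1, 2 and 3, the 10 smooth muscle markers to 2680, 1916 and 2508, the 10 fibroblast markers to 673, 297 and 493, the 10 endothelial markers to 544, 373 and 698, and the 8 B cell markers to 95, 831 and 96.7. In globin-rich barcodes with no hashtag the same lists summed to 335, 3054, 1135, 57.4 and 67.4 CPM. Smooth muscle and fibroblast markers were thus higher there than in any hashtag set, and the other lists lower. The smooth muscle markers also summed to 1440 CPM in T cell-like and 1377 CPM in endothelial-like cells of the reference. Over all globin-rich barcodes none of these 5 lists had a marker at 0. Their part in the comparisons that follow was not tested, apart from a fit without barcodes that held a T cell marker UMI.

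Just above the 20% limit, 120 barcodes with a globin share of 20 to 25% had a median of 2212 UMIs and 757 genes, and 7.93 Alas2, 5.57 Bpgm, 0.617 Car2, 4.90 Mkrn1 and 3.72 Tent5c UMIs per 10000. Just below it, 130 barcodes at 15 to 20% had a median of 4161 UMIs and 1482.5 genes, and 6.86 Alas2, 4.65 Bpgm, 1.07 Car2, 4.98 Mkrn1 and 3.11 Tent5c UMIs per 10000. Car2 was lower just above the limit than just below it, Mkrn1 was nearly level, and the other 3 were slightly higher above it.

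Globin mRNA was dominated by Hbb-bs. The 4 globins chose the globin-rich barcodes, so their levels there are a description. Hbb-bs, a major adult beta chain, had 349342, 301477 and 336975 CPM in globin-rich barcodes of sets 1, 2 and 3, against 874, 861 and 809 CPM in the other cells of the same sets. Hbb-bt, the second adult beta chain, had 56774, 52147 and 58456 CPM, against 93.7, 108 and 89.1 CPM in the other cells. The alpha chain gene Hba-a1 had 81936, 70272 and 78027 CPM, against 193, 179 and 171 CPM, and its copy Hba-a2 had 61538, 52235 and 58878 CPM, against 138, 135 and 130 CPM. Within a group the 3 mice were close to each other for every globin. A globin-rich barcode held a median of 1130 Hbb-bs, 160 Hbb-bt, 253 Hba-a1 and 189 Hba-a2 UMIs.

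Of the adult globin UMIs in all globin-rich barcodes, Hbb-bs took 62.8%, Hba-a1 15%, Hba-a2 11.3% and Hbb-bt 10.9%. The alpha chains together took 26.3%, at 26.1%, 25.7% and 25.7% in sets 1, 2 and 3. Alpha and beta UMIs moved together over barcodes (Spearman rho 0.97 over 3443 barcodes, which share the depth of each barcode). The embryonic globins Hbb-y, Hbb-bh1, Hbb-bh2 and Hba-x did not pass the filter on low counts. The theta-like globin genes Hbq1b and Hbq1a had 22.8, 27.7 and 21.2 CPM and 22.8, 24.5 and 33.0 CPM in globin-rich barcodes of sets 1, 2 and 3, with 1 and 3 UMIs in all other cells with a hashtag, while Cygb, the cytoglobin of fibroblasts and pericytes, had 4 UMIs in globin-rich barcodes and 1097 in the other cells.

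All 5 members outside the globins were far higher in globin-rich barcodes than in the other cells. Raw UMIs were summed per hashtag set and compared with the quasi-likelihood F test of edgeR with the mouse as a block, and a call needed a Benjamini-Hochberg adjusted p under 0.05 over all genes tested and a log2 fold change of at least 1. In such sums fewer cells with a gene and less RNA per cell cannot be told apart. With the mouse as a block, the p-values rest on how far the difference within a mouse varied over 3 mice, not on the spread between mice. The fit also shares its estimate of that variation over genes. Alas2 had 1981, 1660 and 1852 CPM in globin-rich barcodes of sets 1, 2 and 3, against 4.60, 4.44 and 2.50 CPM in the other cells, a log2 fold change of 10.32 ± 0.25 (SE). Bpgm had 1365, 1255 and 1248 CPM, against 14.2, 20.3 and 22.1 CPM (7.54 ± 0.22). For both, the lowest globin-rich set lay far above the highest set of other cells. Mkrn1 had 1156, 1169 and 1321 CPM in globin-rich barcodes, against 40.4, 39.7 and 41.1 CPM in the other cells (6.36 ± 0.21). Tent5c had 753, 689 and 762.1 CPM, against 24.7, 13.1 and 13.2 CPM (6.95 ± 0.22). The groups did not overlap, and the globin-rich sets of Mkrn1 and Tent5c differed among themselves by less than their distance from the other cells. Car2 had 221, 303 and 80.2 CPM in globin-rich barcodes, against 1.25, 3.28 and 2.22 CPM in the other cells (7.75 ± 0.26). Car2 was the most variable of the 5 between mice, with set 3 lowest, yet every globin-rich set lay above every set of other cells. The highest adjusted p of the 5 was that of Car2 (2.03e-189), and the direction was the same in 3 of 3 sets for each. All 5 were called higher, while 3.3% of the 11381 genes tested were called higher and 4.56% lower. The share of all genes whose sets did not overlap between the groups was not counted.

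**Figure D2:**
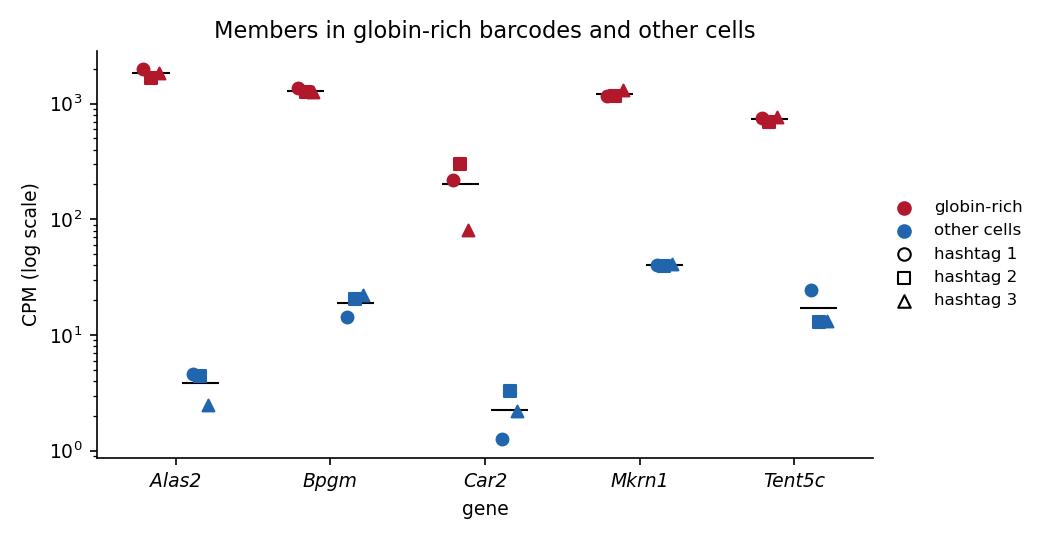
CPM (log scale) of the 5 members outside the globins in globin-rich barcodes (red) and in the other cells (blue), each with 1 point per hashtag set (circle, square and triangle for hashtags 1, 2 and 3) and a line at the mean. For every gene the red points lie above all blue points, and the red Car2 points spread most, between 80.2 and 303 CPM.

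The size of these differences moved with the setting, but their calls did not. Over 16 other settings the log2 fold change ranged over 7.64 to 11.16 for Alas2, 4.83 to 8.44 for Bpgm, 5.10 to 8.66 for Car2, 3.63 to 7.18 for Mkrn1 and 4.23 to 7.66 for Tent5c, with a highest adjusted p of 5.8e-05. The lists of called genes were less stable. Of the 11381 genes, 895 were called either way (7.86%), against 399 when set 2 was left out and 152 without the block.

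Per barcode, Alas2 was found most often and Car2 least. At least 1 UMI was found in 86.9% of globin-rich barcodes for Alas2 (exact binomial 95% interval 85.7 to 88.0%), 69.0% for Mkrn1, 68.3% for Tent5c, 67.5% for Bpgm and 15.6% for Car2 (14.4 to 16.8%). At equal depth, with barcodes thinned to 1000 UMIs (168 shallower globin-rich barcodes left out), the shares were 77.2% in globin-rich barcodes and 0.457% in the other cells for Alas2, 56.2% and 3.44% for Mkrn1, 54.4% and 1.43% for Bpgm, 46.3% and 1.37% for Tent5c, and 8.82% and 0.229% for Car2. In the other cells, which were deeper (median 8809 UMIs, against 2768 in the globin-rich barcodes thinned), the shares without thinning were 2.58%, 24.9%, 12%, 11.4% and 0.935% for the same genes. All 5 members together were found in 468 globin-rich barcodes (13.6%), with a median of 4012.5 UMIs, and none of the 5 in 225 (6.53%), with a median of 1144 UMIs.

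Of the 3 shares within globin compared over globin-rich barcodes, that of Hbb-bt in beta-globin varied most. Pooled over barcodes, Hbb-bt made up 14.8% of beta-globin UMIs, at 14.0%, 14.7% and 14.8% in sets 1, 2 and 3. Single barcodes fell around 2 separate values. There were 384 barcodes at 2 to 4% and 440 at 16 to 18%, with a low of 160 at 8 to 10% between them. The SD over barcodes was 7.12 percentage points, where counting error alone gives 1.28. The split between the alpha genes was much tighter, since the Hba-a2 share of alpha-globin UMIs had an SD of 3.75 points, where counting error alone gives 3.03. The alpha share of all adult globin UMIs had an SD of 4.14 points, where counting error gives 1.36.

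**Figure D3:**
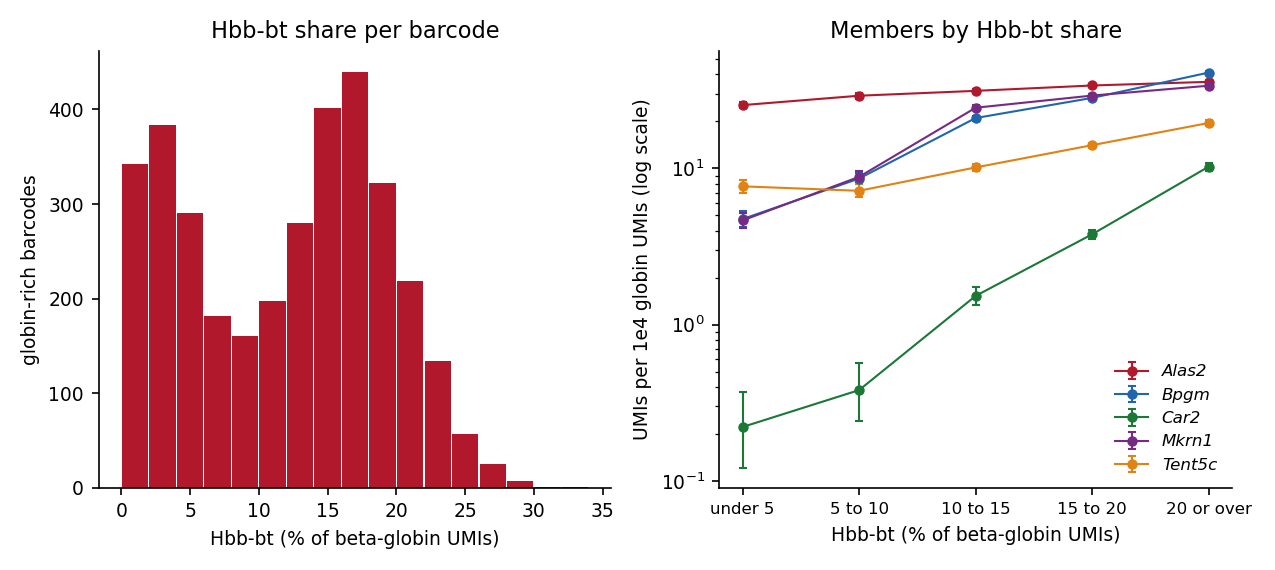
Left, the number of globin-rich barcodes (vertical axis) by the share of Hbb-bt among beta-globin UMIs (horizontal axis, ranges of 2 points), with peaks of 384 barcodes at 2 to 4% and 440 at 16 to 18%. Right, UMIs of 5 members per 10000 globin UMIs (log scale) in 5 ranges of that share, summed over barcodes with exact Poisson 95% intervals. Alas2 rises least, from 25.4 to 35.8, while Bpgm, Mkrn1 and Car2 rise most with the Hbb-bt share.

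Bpgm, Mkrn1, Car2 and Tent5c followed the Hbb-bt share when measured per globin UMI. This measure does not remove a link with the depth or the globin share of a barcode. In the ranges under 5%, 5 to 10%, 10 to 15%, 15 to 20% and at least 20% of Hbb-bt (880, 478, 668, 973 and 444 barcodes), Bpgm had 4.74, 8.62, 21.0, 28.3 and 41.1 UMIs per 10000 globin UMIs. Mkrn1 had 4.65, 8.83, 24.5, 29.3 and 33.8. Tent5c had 7.68, 7.19, 10.1, 14.1 and 19.5. In relative terms Bpgm and Mkrn1 differed most between the ranges from 5 to 10% and from 10 to 15%, and Tent5c differed less between the lowest and highest ranges. Car2 had 0.221, 0.381, 1.53, 3.79 and 10.3 in the same ranges, from 14 UMIs in the lowest and 1163 in the highest. Alas2 had 25.4, 29.2, 31.4, 33.9 and 35.8, so the haem enzyme rose at every step, but by the least of the 5. The highest range over the lowest was 46.4 for Car2, 8.66 for Bpgm, 7.28 for Mkrn1, 2.54 for Tent5c and 1.41 for Alas2. Over barcodes the Spearman rho of the level per globin UMI with the Hbb-bt share was 0.68 for Bpgm and 0.65 for Mkrn1 (3443 barcodes). It was 0.40 for Tent5c, 0.37 for Car2 and 0.29 for Alas2. With the globin share of a barcode it was 0.36 for Bpgm, 0.38 for Mkrn1, 0.12 for Tent5c, 0.13 for Car2 and 0.14 for Alas2.

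Bpgm, Mkrn1, Car2 and Tent5c were higher at a high Hbb-bt share in every hashtag set, while Alas2 was higher in sets 2 and 3 and lower in set 1. In barcodes with an Hbb-bt share of at least 15%, Bpgm had 31.7, 33.8 and 29.0 UMIs per 10000 globin UMIs in sets 1, 2 and 3 (37, 109 and 60 barcodes), against 5.58, 9.81 and 6.86 in barcodes under 10% (38, 102 and 44 barcodes). Mkrn1 had 27.9, 30.9 and 31.8, against 5.27, 8.38 and 5.76. Car2 had 7.27, 10.1 and 2.17, from 56, 266 and 30 UMIs. In the barcodes under 10% it had 0, 0.409 and 0.549, from only 0, 4 and 2 UMIs. The groups did not overlap over mice for these 3 genes, and Car2 was again lowest in set 3 among the barcodes of at least 15%. Tent5c had 17.1, 18.1 and 16.5, against 9.30, 7.87 and 10.4, which did not overlap either. Alas2 had 33.6, 39.2 and 36.3, against 35.3, 26.9 and 29.1, and its groups overlapped. The 3 mice each held both kinds, with 38.9%, 43.3% and 45.5% of their globin-rich barcodes at 15% or more and 33.3 to 40.5% under 10%, and barcodes with no hashtag were split alike (40.8% and 39.6%). With 1 value a mouse and ranges chosen after the data were seen, no test was made. The share of all genes that separate in this way over the 3 mice was not counted.

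Other measures moved with the Hbb-bt share. From the lowest to the highest range, the median number of UMIs was 1335.5, 2037.5, 2945, 3491 and 3943.5, the median mitochondrial share 26.5%, 17.7%, 11.7%, 10.0% and 9.49%, and the median globin share 46.7%, 62.7%, 71.6%, 73.3% and 71.8%. Restricted to barcodes under 15% mitochondrial UMIs, the highest range over the lowest was 5.45 for Bpgm, 5.14 for Mkrn1, 2.71 for Tent5c and 1.03 for Alas2. Restricted to barcodes with a globin share of at least 60% it was 7.46, 5.48, 2.73 and 1.16 for the same genes, and 34.5 for Car2. The Car2 value rested on 5 UMIs in the lowest range. Both restrictions were chosen after the data were seen.

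Other red cell genes were also higher at a high Hbb-bt share when measured per UMI outside the globins. Per UMI outside the globins, the ratio of barcodes with at least 20% over those under 5% had a median of 1.15 over 1584 genes with at least 200 UMIs, and 12.4% of the genes had a ratio above 2. Among these genes Slc4a1, the anion exchanger of the red cell membrane, ranked 1 (305 UMIs against 2) and Car2 ranked 2 (99.7), with counts under 3 set to 3 for the order. Trim10 had 173 UMIs against 2. Gpx1, a glutathione peroxidase, had a ratio of 38.5, Bpgm 18.6, Mkrn1 15.7, Tent5c 5.47 and Alas2 3.03. Per globin UMI the ratios were smaller, at 8.66 for Bpgm, 7.28 for Mkrn1, 2.54 for Tent5c and 1.41 for Alas2. The globin share was also higher in the barcodes of at least 20%. A ratio above 2 on this scale can thus go with a ratio under 2 per globin UMI. Ratios above 2 were found for 12 of 13 late maturation genes, 5 of 6 antioxidant genes, 3 of 3 haem synthesis genes, 4 of 6 membrane genes and 0 of 6 glycolysis genes. They were also found for 3 of 5 iron genes, 2 of 3 transcription factors (Lmo2 and E2f2), 2 of 2 haem breakdown genes and 2 of 2 theta-like globins. The 1 progenitor gene and the 1 carbonic anhydrase other than Car2 had none. The immunoglobulin genes Ighm (0.105) and Igkc (0.108) had the lowest ratios, with 48 Ighm UMIs in barcodes of at least 20% and 549 in those under 5%. The B cell markers, which include both genes, summed to 25, 780 and 41 UMIs in globin-rich barcodes of sets 1, 2 and 3. They summed to 528 UMIs in those with no hashtag. How far these 2 ratios rest on set 2 was not tested.

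The wider red cell programme was tested in the comparison of globin-rich barcodes with the other cells, with the 9 genes left out of each list. The median log2 fold change of all genes tested was -0.12, and 3.3% of them were called higher and 4.56% lower. TMM scaling raised the fitted values by a median of 1.44 over the log2 ratio of mean CPM (2073 genes with at least 50 UMIs in each group), and 71 of the 376 genes called higher had a log2 CPM ratio of at least 1. Late maturation and clearance genes had the most calls, 13 of 18 higher and none lower, with a median of 2.12, and 8 of the 13 had a log2 CPM ratio of at least 1. Ube2l6, a ubiquitin-like conjugating enzyme, had 624, 501 and 559 CPM in globin-rich barcodes of sets 1, 2 and 3, against 13.2, 6.95 and 7.49 CPM in the other cells (7.43 ± 0.22). Ube2o, a ubiquitin-conjugating enzyme that helps clear ribosomes from reticulocytes, followed at 4.98 ± 0.22, and Trim10 (8.84 ± 0.71) rested on 4 UMIs in the other cells. Of the red cell antioxidants, 5 of 6 were higher (median 2.25), 2 of them also by a log2 CPM ratio of at least 1. They included Glrx5 (2.74), Gpx1 (2.68), Blvrb (2.42) and Cat, which encodes catalase (2.09).

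Other parts of haem and iron handling were changed in fewer members. In haem synthesis 3 of 13 genes were higher and none lower, with a median of 0.03. These were Fech, which inserts iron into the porphyrin ring (281, 301 and 316 CPM in globin-rich barcodes, against 24.3, 18.7 and 20.1 CPM in the other cells, 5.30 ± 0.20), the mitochondrial iron carrier Slc25a37 (4.93 ± 0.19) and Slc25a39 (4.27 ± 0.19). Haem breakdown and export had 2 of 6 higher, Blvrb and the haem transporter Slc48a1 (2.12). In iron handling 4 of 10 were higher, Isca1 (4.75), the ferritin receptor Ncoa4 (3.13), the ferritin light chain Ftl1 (2.94) and Iscu (1.30). Iscu was higher in CPM in 1 of 3 sets, so its call rested on the TMM scaling of the fit. The same holds for the calls of Slc48a1, Blvrb and Cat, whose mean CPM differed by 0.61, 0.90 and 0.66 on the log2 scale, and of Prdx2 (0.29), higher in 2 of 3 sets. Of the membrane genes 4 of 11 were higher, among them Slc4a1 (88 UMIs, against 1 in the other cells) and Epb41, a linker of the membrane skeleton (4.24 ± 0.19), and 8 of 19 membrane genes were too low to test. Glycolysis had none higher and 1 of 12 lower (Tpi1, -1.02), so Bpgm was the single called gene of that list in the higher direction. Of the carbonic anhydrases other than Car2, Car3 was higher (2.40), Car8 lower (-3.35) and the remaining 2 tested were not called.

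No gene of early red cell precursors was called higher. Of all genes tested 3.3% were called higher, so the lack of a call among so few genes says little about them. None of 7 transcription factors tested was called either way, and Gata1, Klf1, Nfe2, Gfi1b and Bcl11a were too low to test. Among 5 progenitor genes Cd34 was lower (-1.004), and the erythropoietin receptor gene Epor was too low to test. Beyond the lists, the rule for naming genes added Rec114 (8.65 ± 0.45), Apol11b (8.47 ± 0.48), Fam220a (7.06 ± 0.29) and Isg20 (5.70 ± 0.20) on the higher side. On the lower side it gave Wfdc2, S100a9, Krt19, Ltf, Sult1d1, S100a8, Cytl1, Cyp2f2, Lypd2 and Igfbp6, with log2 fold changes of -5.21 to -3.28. Over the 23 cell clusters, made without the 9 genes, the 10 genes whose level was most like that of the summed globins included Alas2 (Pearson r 0.95), Ccndbp1 (0.87), Ube2l6 (0.83), Mkrn1 (0.81), Isca1 (0.78), Bpgm (0.77), Dcaf12 (0.75), Rsad2 (0.74) and Fech (0.74). Car2 (0.68) and Tent5c (0.64) were outside the first 10. These r rest largely on 1 cluster of 197 cells, of which 153 were globin-rich.

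In the other cells, globin RNA was found in nearly every cell at a low number. Of the 9623 cells, 99.0% held at least 1 adult globin UMI, with a median of 6 per cell. The median was 5 in T cell-like, fibroblast-like, endothelial-like and pericyte-like cells, 6 in smooth muscle-like and B cell-like cells and 8 in epithelial-like and mesothelial-like cells. Barcodes that failed the filters also had a median of 5. The median depth of these classes ran from 3738 UMIs in T cell-like to 14817 in epithelial-like cells, and was 1652 in the failing barcodes, so over classes the median varied less than depth. Within each of the 4 large classes the deepest cells held the most on average, though not every step rose. In 4 equal groups of cells by depth, from the shallowest, the mean number was 5.18, 6.19, 7.06 and 11.8 in T cell-like cells. It was 8.48, 10.7, 11.7 and 16.2 in smooth muscle-like cells and 6.11, 7.70, 6.97 and 13.2 in fibroblast-like cells. In endothelial-like cells it was 5.83, 5.55, 8.34 and 20.8. The few cells with many globin UMIs, described below, weigh on these means. Among the epithelial-like cells, 1 cluster of 24 with a median depth of 34009.5 UMIs had a median of 17. Per 10000 UMIs, the level was highest in the failing barcodes, the shallowest, and lowest in epithelial-like cells, the deepest, though it did not follow depth throughout. It was 32.4 in failing barcodes, 18.9 in endothelial-like, 15.6 in T cell-like, 10.8 in fibroblast-like, 9.86 in smooth muscle-like and 5.37 in epithelial-like cells. The order of endothelial-like and T cell-like cells rested on a few cells near the limit. In cells under 2% globin, 996 of the 1010 endothelial-like cells, the level was 11.2 in endothelial-like and 12.6 in T cell-like cells. Over the 3 mice it was 15.1 ± 0.384 in T cell-like, 12.9 ± 3.47 in fibroblast-like and 9.53 ± 1.14 in smooth muscle-like cells, against 19.7 ± 3.18 in endothelial-like cells (mean ± SD of 3 sets).

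**Figure D4:**
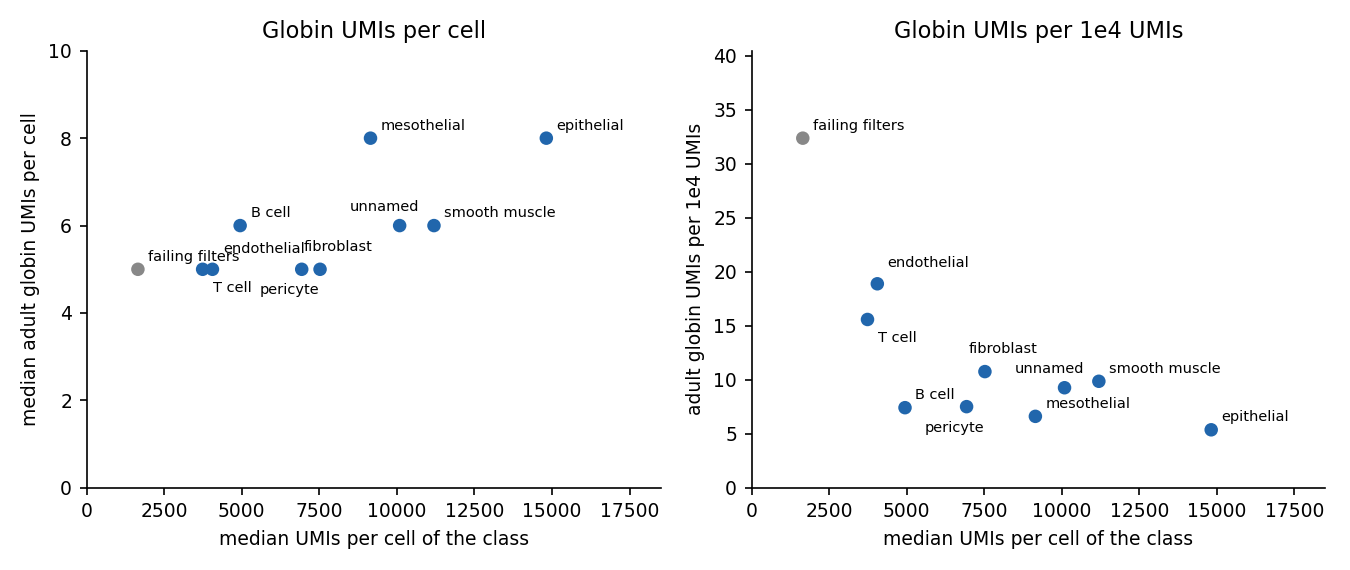
Median adult globin UMIs per cell (left) and adult globin UMIs per 10000 UMIs (right) of each cell class with under 5% globin (blue) and of barcodes that failed the filters (grey), against the median UMIs per cell of the class. The left values stay between 5 and 8 over depths of 1652 to 14817 UMIs, while the right values run from 32.4 in the shallowest group to 5.37 in the deepest.

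The pooled make-up of these globin UMIs differed in value between the large classes over all cells, but little among cells with few of them. Over all cells under 5% globin, Hbb-bt made up 12.1% of beta-globin UMIs in T cell-like cells (95% interval 11.5 to 12.8%), 9.74% in smooth muscle-like cells (9.46 to 10.0%), 10.5% in fibroblast-like cells (9.83 to 11.2%) and 9.87% in endothelial-like cells (9.21 to 10.6%). The T cell interval lay above the others, but such intervals take each UMI as independent. A few cells held many of the UMIs, and the variance of globin UMIs per cell over its mean was 61.2 in T cell-like and 161 in smooth muscle-like cells. The gap between the intervals thus does not measure a difference between classes beyond the spread of cells or mice. In cells with 1 to 19 globin UMIs, Hbb-bt made up 13.6% of beta-globin UMIs in T cell-like cells (95% interval 12.8 to 14.4%), 13.1% in smooth muscle-like cells (12.7 to 13.6%), 13.5% in fibroblast-like cells (12.6 to 14.5%) and 13.3% in endothelial-like cells (12.3 to 14.4%). These intervals overlap, and the 4 values lie below the 14.8% of globin-rich barcodes. The alpha share was 24.3%, 24.3%, 23.5% and 24.1% in the same classes, against 26.3% in globin-rich barcodes.

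Cells with more globin UMIs than this had another make-up. Between 2.21% (T cell-like) and 3.06% (smooth muscle-like) of cells in the 4 large classes had 20 or more, and 17.9% of the 67 epithelial-like cells. Over all other cells the Hbb-bt share was 13.8% at 10 to 19 globin UMIs, 10.8% at 20 to 49, 5.90% at 50 or more but under 200 (94 cells) and 6.62% at 200 or more (74 cells). The values at 50 or more lie near the lower of the 2 groups of globin-rich barcodes. Those 74 cells held 29.1% of the adult globin UMIs of the 9623 cells. The Hba-a2 share of alpha-globin UMIs kept to 41.0 to 44.2% over these ranges. The limit of 20 UMIs was chosen after the data were seen. Further up, a globin share of 5 to 20% was found in 2.01% of T cell-like, 1.27% of smooth muscle-like, 2.23% of fibroblast-like and 2.53% of endothelial-like cells.

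**Figure D5:**
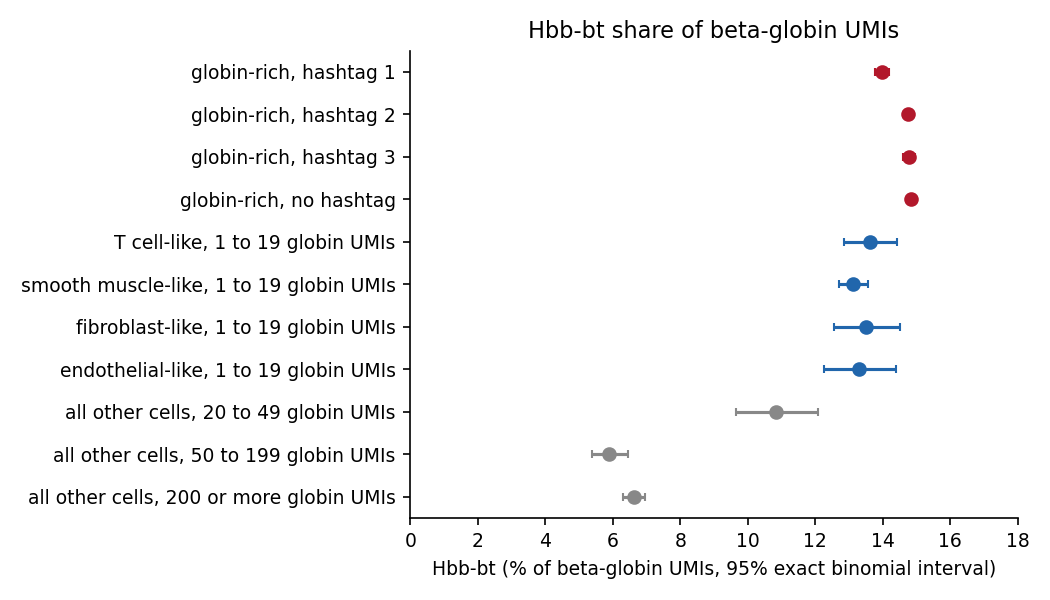
Hbb-bt as % of beta-globin UMIs (horizontal axis) with exact binomial 95% intervals, in globin-rich barcodes by hashtag (red), in 4 cell classes with 1 to 19 globin UMIs per cell (blue), and in all other cells by higher numbers of globin UMIs (grey). The blue points lie between 13.1 and 13.6%, just below the red ones, and the grey points at 50 or more UMIs lie at 5.90 and 6.62%.

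Classes outside the red cell line were compared with endothelial-like cells, the class of lowest depth after T cells, on sums of 3 hashtag sets. The 3 comparisons share the endothelial-like sums. T cell-like cells, near endothelial-like cells in depth, differed little. Hbb-bs had 1061, 1008 and 996 CPM in T cell-like cells of sets 1, 2 and 3, against 1603, 1234 and 1153 CPM in endothelial-like cells. Its log2 fold change was -0.51 ± 0.10 (adjusted p 1.74e-06), short of the fold of a call. Hba-a1 (-0.58), Hba-a2 (-0.62) and Hbb-bt (-0.16) were not called, nor were Bpgm, Alas2, Mkrn1 and Tent5c (under other settings Hba-a1 was called at -1.05 below 10% mitochondrial UMIs, and Bpgm at -1.11 without set 2), while 20.9% of the 10344 genes tested were called higher, 26.3% lower and 47.1% either way. Car2 was too low to test in all 3 comparisons.

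Smooth muscle-like cells, with a median of 11195.5 UMIs against 4054.5, had lower globin levels per UMI. Hbb-bt had 72.9, 65.2 and 50.2 CPM in smooth muscle-like cells, against 147, 139 and 129 CPM in endothelial-like cells (-1.05 ± 0.13, adjusted p 2.46e-07). Hbb-bs (-0.94), Hba-a1 (-0.88) and Hba-a2 (-0.95) were lower in 3 of 3 sets and just short of the fold of a call. Hbb-bt was called and the other globins were not, yet the 4 values lie between -1.05 and -0.88. With a stricter hashtag limit all 4 globins were called lower, Hbb-bs at -1.49, Hba-a1 at -1.22 and Hba-a2 at -1.40, and without set 2 Hbb-bs (-1.11) and Hba-a2 (-1.03) were. Bpgm had 9.64, 13.0 and 9.69 CPM, against 16.9, 21.4 and 45.9 CPM (-1.25 ± 0.27, adjusted p 0.000451). Its endothelial-like values rest on set 3, without which it was -0.63 and not called. The call of Hbb-bt was lost without set 3 (-0.94), with doublets kept (-0.86) and under 10% mitochondrial UMIs (-0.95). Tent5c went the other way, with 15.7, 17.1 and 13.7 CPM in smooth muscle-like cells, against 6.44, 7.47 and 7.55 CPM in endothelial-like cells (1.20 ± 0.28, adjusted p 0.000977), a call that was lost with DESeq2 (1.21, adjusted p 0.063). Hbb-bt and Bpgm were thus called lower and Tent5c higher, where 17.1% of the 10253 genes tested were called lower, 17% higher and 34.1% either way. Scaled to the number of cells, a setting chosen after the data were seen under which the median of all genes was 1.12, the 4 globins were at 0.09 to 0.26 with adjusted p of 0.0987 to 0.589, Bpgm was at -0.12, and Tent5c remained higher at 2.34.

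Fibroblast-like cells shared the Tent5c difference. Tent5c had 19.5, 27.1 and 16.2 CPM in fibroblast-like cells, against 6.44, 7.47 and 7.55 CPM in endothelial-like cells (1.58 ± 0.38, adjusted p 0.00444). The groups did not overlap in this comparison or in the smooth muscle one, but the share of all genes without overlap was not counted. Tent5c was the only called gene of the 7 tested, where 15.5% of 9151 genes were called higher, 13.3% lower and 28.8% either way. Without set 2 its value was 1.32 and the call was lost, as it was with DESeq2 (1.54). The globins were at -0.99 (Hbb-bt), -0.95 (Hba-a2), -0.79 (Hba-a1) and -0.54 (Hbb-bs), and Bpgm at -0.85 and Mkrn1 at -0.19, none of them called. Calls were gained under other settings. With the stricter hashtag limit all 4 globins were called lower (Hbb-bt -1.93, Hba-a2 -1.41, Hbb-bs -1.27 and Hba-a1 -1.02), as was Bpgm (-3.38). Hbb-bt and Hba-a2 were also called lower without set 1 (-1.09 and -1.15) and with no filter on low counts (-1.13 and -1.10), Hbb-bt with the size factors of DESeq2 (-1.001), Bpgm without set 1 (-1.69) and Hba-a1 without set 3 (-1.09).

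Outside the red cell line, Tent5c varied more between classes than Mkrn1. How much of these UMIs was free RNA was not tested. Over all cells of a class, with exact Poisson 95% intervals for counting error, Tent5c was highest in the 48 mesothelial-like cells at 111 CPM (85.6 to 142), found in 62.5% of them. It was 70.4 CPM in 21 B cell-like cells (35.1 to 126), 45.7 in 67 epithelial-like cells (35.5 to 57.9), 26.7 in fibroblast-like (23.5 to 30.2), 14.3 in smooth muscle-like (13.3 to 15.3), 7.28 in T cell-like (5.61 to 9.30), 6.84 in endothelial-like (4.82 to 9.43) and 2.20 in pericyte-like cells (0.267 to 7.96). The intervals of neighbours in this order overlap, except between fibroblast-like and its neighbours and between smooth muscle-like and T cell-like cells. Adult globins were at 6.62 per 10000 UMIs in the mesothelial-like cells, among the lowest values. Mkrn1 was between 29.6 CPM in smooth muscle-like and 51.7 CPM in epithelial-like cells, so that its classes lay close together. Alas2 was between 1.34 and 6.66 CPM in every class with a UMI and at 0 in B cell-like cells, where 0 UMIs allow up to 19.2 CPM. Car2 was at 0.227 CPM in smooth muscle-like, 2.03 in endothelial-like, 3.76 in T cell-like, 6.61 in pericyte-like and 12.2 in mesothelial-like cells, with pericyte-like and mesothelial-like values from 6 and 7 UMIs.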

How the data were processed

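The deposited matrix holds raw UMI counts per gene and barcode, not normalised, which the authors made with Cell Ranger 6.0.1, per the file headers. The submitters' processing notes also name Seurat 4.0.5 and the mm10 build. The 4 gene expression and 4 hashtag libraries are of 1 cell pool and are not kept apart in the counts. Hashtags were called here with HTODemux of Seurat 5.3.0 (quantile 0.99), with cutoffs found at 129 (hashtag 1), 765 (hashtag 2) and 266 UMIs (hashtag 3).

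Of 11301 barcodes past the filters, 703 were called doublets with Scrublet (scanpy 1.11.5). Its automatic threshold called 0, so the highest-scoring share of 0.06 was taken. Clusters (23, from 10106 barcodes) were made with Leiden of igraph 0.11.9 (10000 UMIs per cell, 2000 variable genes, 30 components, 15 neighbours, resolution 0.8) without the 9 genes, the gene lists, mitochondrial and ribosomal genes. They were called "X-like" from marker genes, and rebuilt names can differ from the study's. Sums of at least 10 cells per hashtag set and group were compared with edgeR 4.0.16 (R 4.3.3, TMM, low-count filter). The mouse was the block because both groups of a comparison hold cells of the same mice. SE is the log2 fold change over the root of F. DESeq2 1.42.0 and other settings were alternatives, and the fits were tested on simulated counts. Intervals are exact, at 95%, and cover counting error alone.

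The 9 genes were always named. Also named were the 10 called genes of largest change each way with 1 sign in all sets and at least 50 CPM in the higher group, up to 4 called genes each way per list, and the 10 genes of highest Pearson r of log2(CPM + 10) with the summed globins over clusters, with at least 200 UMIs. Genes known by Gm or Rik names, and mitochondrial and sex-telling genes, were not named. Some results under these criteria are not reported here. The genes and lists were chosen with earlier results of these data known.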

Additional observations from a re-analysis of the deposited data

How the results depend on the processing

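The 5 members outside the globins kept their direction and their call in globin-rich barcodes in all 80 repeats under other settings. The count of all genes called there, 895, was less stable. It was 471 with DESeq2, 335 with hashtag counts of at least 2 times the cutoff, 1380 under 10% mitochondrial UMIs, 262 with a globin limit of 10%, 342 without barcodes holding T cell marker UMIs and 10957 scaled to the number of cells, and 399 to 897 with 1 mouse left out. The setting without T cell marker UMIs and the scaling to the number of cells were chosen after the data were seen. Pairing by mouse came from the hashtags. Without the replicate block 152 genes were called in globin-rich barcodes, and 4884, 3493 and 2619 in the T cell, smooth muscle and fibroblast comparisons. Smooth muscle-like over endothelial-like cells gave 3361 to 3694 calls with 1 mouse left out and 6634 scaled to the number of cells. The T cell comparison gave 4458 to 5119 and the fibroblast comparison 2130 to 2828 with 1 mouse left out, and the fibroblast one 1741 with the stricter hashtag limit.

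Signs turned in the weak differences. Against endothelial-like cells, T cell-like cells had Tent5c at 0.10 and Mkrn1 at -0.015 under 10% mitochondrial UMIs, Bpgm between -1.11 and 0.091 and Alas2 between -0.74 and 0.17 with 1 mouse left out. In smooth muscle-like cells Mkrn1 was -0.36 to 0.14 with 1 mouse left out, above 0 without mouse 1 or 2 (0.14 and 0.076). Scaled to the number of cells, which moves all genes alike (a median of 1.12 in this comparison), Mkrn1 was 1.09, Hbb-bt 0.091, Hbb-bs 0.20, Hba-a1 0.26 and Hba-a2 0.19 there, and Mkrn1 0.50 and Hbb-bs 0.14 in fibroblast-like cells. The call of Hbb-bt in smooth muscle-like cells was lost without mouse 3 (-0.94), with doublets kept (-0.86) and under 10% mitochondrial UMIs (-0.95). The causes were not tested.

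Free globin per 10000 UMIs depended on the limit on the globin share. As the mean of the 3 hashtag sets, with a limit of 2% it was 7.56 in smooth muscle-like, 13.1 in T cell-like and 10.8 in endothelial-like cells, and with no limit 20.4, 141 and 162, and 48.2 in fibroblast-like cells. With 1 mouse left out it was 14.97 to 15.4 in T cell-like, 8.91 to 10.0 in smooth muscle-like, 11.7 to 14.9 in fibroblast-like and 17.9 to 20.9 in endothelial-like cells. The Hbb-bt share with a limit of 2% was 10.9% in smooth muscle-like, 13.2% in T cell-like and 12.8% in endothelial-like cells. With 1 mouse left out it was 14.4 to 14.8% in globin-rich barcodes, 11.8 to 12.4% in T cell-like, 7.96 to 9.50% in smooth muscle-like, 6.18 to 8.19% in fibroblast-like and 9.24 to 10.1% in endothelial-like cells. Thinned to 2000 UMIs, detection was 96.2% in globin-rich barcodes and 0.804% in the other cells for Alas2, 80.9% and 3.32% for Bpgm, 83.4% and 6.92% for Mkrn1, 72.2% and 2.71% for Tent5c, and 16.5% in globin-rich barcodes for Car2. Taken over all classes, most of the other cells held no UMI of each of the 5 members outside the globins. Detection there was lower after thinning, for Mkrn1 24.9% without it and 3.44% at 1000 UMIs. Without thinning, Tent5c was found in most mesothelial-like cells (62.5%) and Mkrn1 in most epithelial-like cells (56.7%).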
